A study of Mus musculus with 16 samples.

Results

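The 35 genes described here make, regulate, move or store cholesterol and fatty acids. They were chosen by name, as a list of the sterol and fatty acid pathways, by a rule that names the genes and uses no measured value, although the list was drawn up with earlier results of these data known. All 35 were on the array and all 35 passed the filter on dim probes, out of 24360 genes tested. The list holds 18 enzymes of sterol synthesis, 3 regulators (Insig1, Srebf1, Srebf2), 7 enzymes of fatty acid synthesis, 4 genes of cholesterol efflux and removal (Abca1, Abcg1, Apoe, Cyp46a1) and 3 genes that handle sterols or lipids (Stard4, Soat1, Lpl).

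RNA came from the hypothalamus of 16 mice, 8 KO chimeras and 8 control mice, with 1 animal per 1-colour Agilent array. KO chimeras were C57BL/6J mice irradiated with 950 Rad, a dose lethal without a marrow graft, and then given, by 1 injection behind the eye, whole bone marrow of the strain Adrb1tm1BkkAdrb2tm1Bkk/J, which lacks the beta-1 and beta-2 adrenergic receptors, with 2 to 3 months between the graft and tissue collection. Control mice are labelled as C57BL/6J too, and the same irradiation and graft text stands in the labels of all 16 mice, while a donor strain is given for the KO chimeras alone. Whether control mice were irradiated or received other marrow is therefore not settled. The ratio in the labels, 1 part knockout to 4 parts C57BL/6J, does not say whether it counts mice or marrow cells, so KO chimeras may share donors. The deletion lies in blood-forming cells and their progeny, and the brain cells of the recipients keep both receptor genes, so receptor levels in this tissue do not check the labels and were not used here. Judged by its title, the series asks what happens in several tissues when sympathetic signals are lost.

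Cells of the brain make nearly all of its cholesterol themselves, because lipoproteins of the blood do not cross the blood-brain barrier. When sterols run low in the endoplasmic reticulum, the membrane-bound transcription factors SREBP-1 (Srebf1) and SREBP-2 (Srebf2) are carried to the Golgi, cut free and sent to the nucleus, where they switch on the genes of sterol and fatty acid synthesis. INSIG proteins hold them back when sterols are plentiful. Oligodendrocytes use much of the product for myelin, astrocytes supply neurons with cholesterol on apolipoprotein E, and neurons dispose of the excess by hydroxylating it with CYP46A1.

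SREBPs bind sterol regulatory elements next to CCAAT boxes, which are bound by the factor NF-Y. Promoters of 3 enzymes are shown because Idi1 and Lss were the members that passed the test between the groups, in opposite directions, and Hmgcs1 was the member with a match to both spellings of the sterol regulatory element that were searched. Each line gives the 200 bases before the gene start from RefSeq (GRCm38.p6, plus strand), with matches in capitals.
Idi1: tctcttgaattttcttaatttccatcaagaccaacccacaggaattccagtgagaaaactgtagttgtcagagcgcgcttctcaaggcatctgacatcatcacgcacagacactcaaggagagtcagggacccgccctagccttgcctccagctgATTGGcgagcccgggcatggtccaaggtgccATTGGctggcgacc
Lss: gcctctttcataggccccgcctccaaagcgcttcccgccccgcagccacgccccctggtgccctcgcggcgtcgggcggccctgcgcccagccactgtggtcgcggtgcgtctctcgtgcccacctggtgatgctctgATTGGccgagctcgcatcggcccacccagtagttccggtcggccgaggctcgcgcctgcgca
Hmgcs1: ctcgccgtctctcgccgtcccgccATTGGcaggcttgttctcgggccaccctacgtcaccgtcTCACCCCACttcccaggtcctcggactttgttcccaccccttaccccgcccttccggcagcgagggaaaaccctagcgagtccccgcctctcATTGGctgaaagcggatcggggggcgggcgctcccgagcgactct
These stretches are chr13:8885406-8885605 for Idi1, chr10:76531405-76531604 for Lss and chr13:119690151-119690350 for Hmgcs1. The capitals mark CCAAT or its reverse complement ATTGG and, in Hmgcs1, TCACCCCAC.

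RefSeq promoters, from 250 bases before to 50 after the start, were matched to 27 of the 35 genes. A gene counted as holding a motif when any of its promoters had it on either strand. CCAAT was found in 22 of the 27 member genes (81.5%), and 41.1% of the 27025 genes with a promoter held it. Of those 22 genes, 14 were sterol enzymes and 3 were the regulators. CACGTG, the E-box, was found in 6 member genes (22.2%; Abca1, Dhcr7, Elovl5, Hsd17b7, Insig1 and Sc5d), against 8.09% of all genes. CACCCCAC was found in Acat2 and Hmgcs1 (7.41%), against 3.30% of all genes, and TCACNCCAC, which can contain it, in Hmgcs1 alone (3.70%), against 1.44% of all genes. Idi1 and Lss had CCAAT matches, and neither spelling of the sterol regulatory element was in its window. A match is a description of letters and no evidence of binding.

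Expression is given as log2 of the processed signal minus the 75th percentile of the array. Differences are KO chimera minus control, so that a negative value means a lower signal in KO chimeras. Each array measured a separate animal, and p-values cover the spread between animals. Spots well above background numbered 27276 (KO chimera replicate 1) to 43248 (control replicate 8) of 59305 per array, and the number of arrays limits the precision. Of 14 genes that mark hypothalamus, 13 were above background and tested, and limma called 0 of them (2 at an unadjusted p under 0.05). Among all genes tested 3.83% were called and 20.7% had an unadjusted p under 0.05.

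In the hypothalamus of KO chimeras most of the lipid genes differed little from control. Of the 35 genes, 1 fell (Idi1) and 1 rose (Lss) at a limma adjusted p under 0.05. Over all genes tested the shares were 3.83% in either direction (933 genes), 2.8% lower and 1.03% higher, so 2 of 35 is close to the background. With each array centred on its median in place of the 75th percentile, all genes shifted by −0.13 (median), 4168 genes were called and 178 of them were higher (4.27%, against 26.8% as reported here); 10 members then passed as lower and 0 as higher. At an unadjusted p under 0.05 there were 7 of the 35, and 20.7% of all genes. The groups overlapped for all 35, while they did not overlap for 0.956% of all genes. The median size of the differences, whatever their sign, was 0.099 for the members and 0.12 for all genes.

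The signs leaned one way. The log2 fold change was negative for 27 of the 35 members (77.1%) and for 50.1% of all genes, with a median of −0.09 for the members and −0.00035 for all genes. The number of negative members was 25 with quantile normalization, 34 with centring on the array median, 23 with normexp background correction and 26 in the authors' deposited value table. In the same settings, and in the same order, 53.2%, 74.1%, 51.2% and 53.9% of all genes were negative. The share also moved with the filter on dim probes. It was 38.8% with no filter and 54.2% among genes well above background on all 16 arrays. All members but Lpl were well above background on all 16 arrays, so 54.2% is the closer comparison. Members are genes measured in the same 16 animals and are not independent, so the count of negative members has no test. In a tissue sample, fewer cells of a type and less RNA per cell cannot be told apart.

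**Figure D1:**
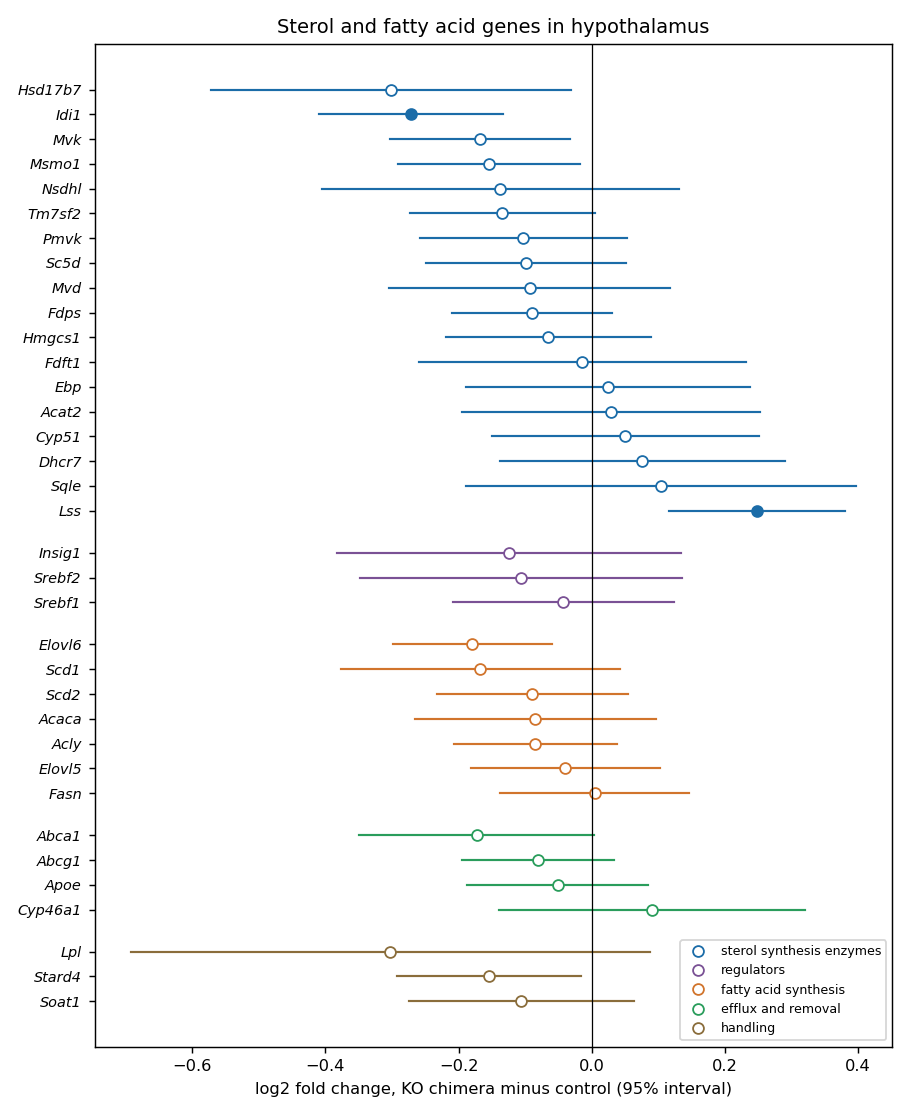
Log2 fold change of each of the 35 genes, KO chimera minus control, with its 95% interval from limma (n = 8 each), coloured by group of genes. Filled points passed an adjusted p of 0.05 (Idi1 at −0.27, Lss at 0.25) and open points did not. Of the 35 points 27 lie left of 0 (23 to 34 with other scalings of the arrays). The share of all genes left of 0 was 50.1% (51.2% to 74.1% with those scalings). It was 54.2% among genes well above background on all 16 arrays.

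**Figure D2:**
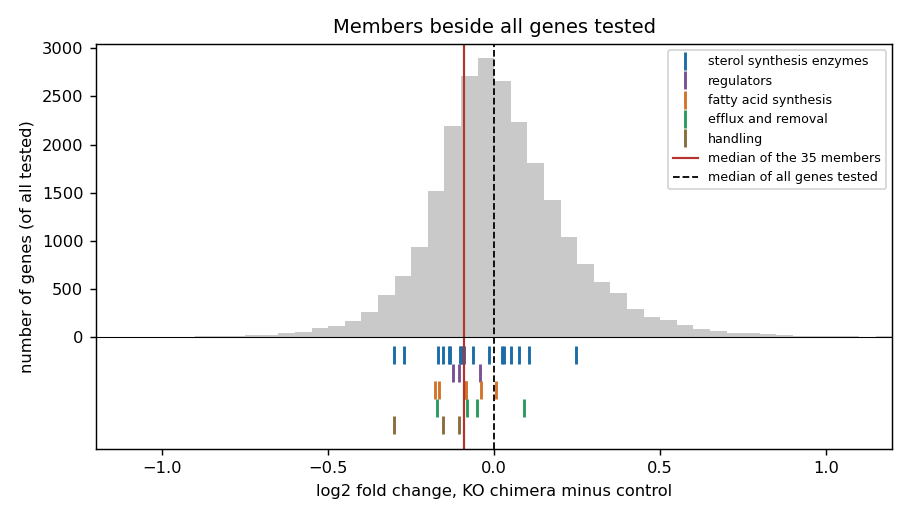
Histogram of log2 fold changes of the 24360 genes tested, in bins of 0.05, with the 35 members as ticks below it by group of genes; 32 genes lie outside the axis. The median of the members (−0.09) lies left of the median of all genes, and the members lie between −0.30 and 0.25.

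Sterol synthesis starts from acetyl-CoA, and its first stage ends with the isoprenoid units. Acat2 joins 2 acetyl-CoA molecules and Hmgcs1 adds the next. Mvk, Pmvk and Mvd phosphorylate and then decarboxylate mevalonate, and Idi1 converts isopentenyl into dimethylallyl diphosphate. Idi1 (chromosome 13, mm9, probe at 8891524 to 8891583) measured 2.00, 2.25 and 2.42 in KO chimeras (lowest, median and highest of 8), against 2.35, 2.51 and 2.66 in control mice. All but 1 of the KO chimeras lay below every control mouse, and the groups overlapped through KO chimera replicate 5. Idi1 averaged 2.23 ± 0.13 in KO chimeras and 2.50 ± 0.11 in control mice (SD, n = 8 each), and it fell by 0.27 on the log2 scale (SE 0.07, adjusted p = 0.0340 by limma), or fell by 17.2%. The difference was negative in 5 of the 5 slides that held both groups, between −0.05 on slide 3 and −0.43 on slide 5, and measured −0.35 and −0.19 on the 2 scan days. Blocked by slide it was −0.26 and did not pass (limma adjusted p = 0.0655). With 1 animal left out at a time Idi1 passed in 7 of 16 fits, and it did not pass with quantile normalization (limma adjusted p = 0.0721).

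Mvk, mevalonate kinase, measured 2.37, 2.48 and 2.62 in KO chimeras, against 2.33, 2.69 and 2.78 in control mice. Its lowest control mouse, replicate 8, lay below all KO chimeras, and the other 7 control mice lay above them. The log2 fold change was −0.17 ± 0.06 (SE, adjusted p = 0.144 by limma), and without control replicate 8 it was −0.22 and passed (limma adjusted p = 0.0291). A second Mvk probe gave −0.09. The other enzymes of this stage did not pass. Hmgcs1, which makes HMG-CoA, gave −0.07 ± 0.07, Pmvk −0.10 ± 0.07 and Mvd −0.09 ± 0.10, while Acat2 gave 0.03 ± 0.11 (SE each).

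Fdps joins the isoprenoid units into farnesyl diphosphate. From there to lanosterol the enzymes are Fdft1 (squalene synthase), Sqle (squalene epoxidase) and Lss (lanosterol synthase), which closes the 4 rings. Lss (chromosome 10, mm9, probe at 76015992 to 76016051) measured −1.79, −1.61 and −1.51 in KO chimeras, against −2.05, −1.88 and −1.67 in control mice. Here 7 of the 8 KO chimeras lay above every control mouse, and replicate 7 lay among the control mice. Lss averaged −1.61 ± 0.08 in KO chimeras and −1.86 ± 0.13 in control mice (SD, n = 8 each), a difference of 0.25 ± 0.06 on the log2 scale (SE, adjusted p = 0.0388 by limma), or 18.7% higher. The difference was positive on 4 slides and −0.09 on slide 5, and measured 0.27 and 0.22 on the 2 scan days. Blocked by slide it was 0.24 and did not pass (limma adjusted p = 0.0927). Lss passed in 4 of the 16 fits with 1 animal left out, and with quantile normalization it was 0.17 and did not pass (limma adjusted p = 0.152). With centring on the array median it was 0.12 and did not pass. Lss was dimmer than Idi1, although well above background on all 16 arrays. With no filter on dim probes 38.8% of all genes were negative, against 50.1% with it. The part of this leaning in the Lss difference was not tested. The neighbouring steps did not pass. Fdps gave −0.09 ± 0.06, Fdft1 −0.01 ± 0.12 and Sqle 0.10 ± 0.14 (SE each). The second Fdft1 probe gave 0.28 and was dim, averaging −3.45 in KO chimeras and −3.73 in control mice, against 2.27 and 2.29 on the tested probe.

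The remaining enzymes turn lanosterol into cholesterol by removing methyl groups and moving double bonds. Msmo1, the C4-methyl oxidase, measured 3.78, 4.01 and 4.14 in KO chimeras, against 3.96, 4.13 and 4.25 in control mice. The 3 lowest of the 16 animals were KO chimeras and the ranges overlapped widely; the log2 fold change was −0.15 ± 0.06 (SE, adjusted p = 0.187 by limma). Hsd17b7, the ketoreductase of the same step, measured −1.42, −0.90 and −0.67 in KO chimeras, against −1.12, −0.71 and −0.34 in control mice. Its log2 fold change was −0.30 ± 0.13 (SE, adjusted p = 0.191 by limma), negative on 5 of 5 slides, and a second probe gave −0.34. Nsdhl, the decarboxylase between them, gave −0.14 ± 0.13 and Tm7sf2, a sterol reductase, −0.13 ± 0.07. Sc5d gave −0.10 ± 0.07, whereas Cyp51, the C14-demethylase, gave 0.05 ± 0.09, Ebp, a sterol isomerase, 0.02 ± 0.10, and Dhcr7, which makes cholesterol from 7-dehydrocholesterol, 0.08 ± 0.10 (SE each). Over the 18 sterol enzymes 12 differences were negative and the median was −0.09.

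**Figure D3:**
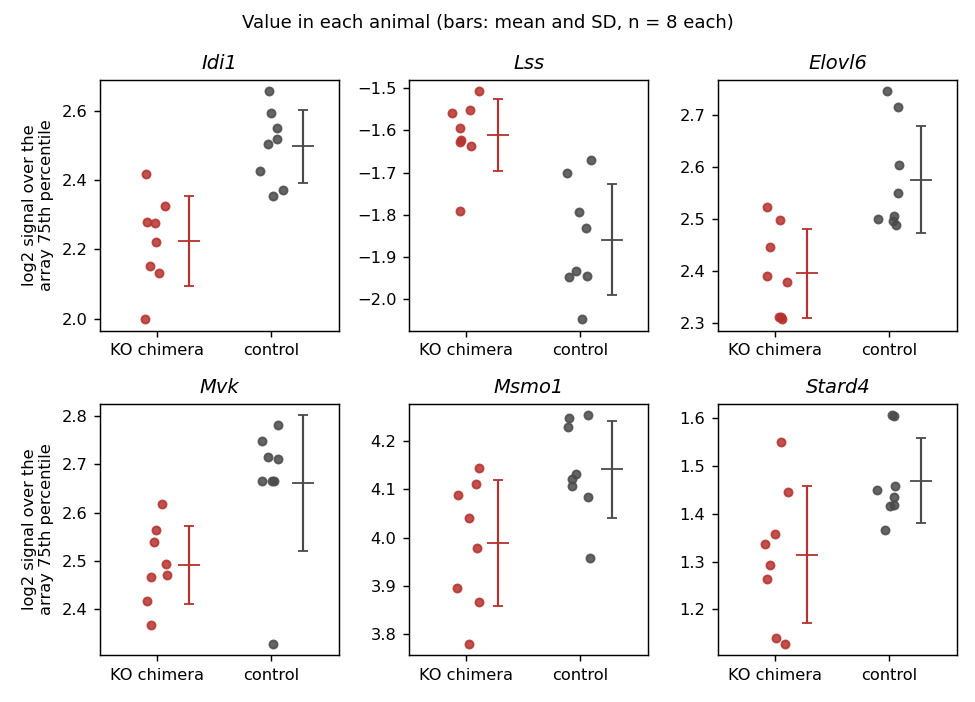
Log2 signal relative to the 75th percentile of the array in each animal for the 6 members with the smallest p, KO chimeras on the left and control mice on the right, with mean and SD (n = 8 each). For Idi1 7 KO chimeras lie below every control mouse, for Lss 7 lie above, and for Mvk a single control mouse lies below the rest.

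The 3 regulators did not pass. Insig1, which retains the SREBPs in the endoplasmic reticulum and is itself an SREBP target, measured −1.01, −0.71 and −0.53 in KO chimeras, against −1.04, −0.61 and −0.20 in control mice. The highest 4 animals were all control mice, but the lowest was also a control mouse; the log2 fold change was −0.12 ± 0.12 (SE, adjusted p = 0.595 by limma). Srebf2, which encodes the SREBP that mainly drives sterol genes, measured −1.35, −0.94 and −0.67 in KO chimeras, against −1.19, −0.93 and −0.51 in control mice. The medians lay next to each other and the log2 fold change was −0.11 ± 0.11 (SE, adjusted p = 0.629 by limma). It was 0.10 on scan day 1 and −0.31 on scan day 2. A second, dimmer Srebf2 probe (averages −2.82 in KO chimeras and −2.57 in control mice) gave −0.25. Srebf1, whose SREBP-1c form mainly drives fatty acid genes, gave −0.04 ± 0.08 (SE), with −0.18 and 0.10 on the 2 days.

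Fatty acid synthesis draws on cytosolic acetyl-CoA from Acly, which cleaves citrate. Acaca carboxylates it to malonyl-CoA, Fasn builds palmitate, Elovl5 and Elovl6 lengthen fatty acids, and Scd1 and Scd2 put in the first double bond. Elovl6 (chromosome 3, mm9, probe at 129341248 to 129341307) measured 2.31, 2.39 and 2.52 in KO chimeras, against 2.49, 2.53 and 2.75 in control mice. In 6 of 8 KO chimeras it lay below every control mouse. Elovl6 averaged 2.40 ± 0.09 in KO chimeras and 2.58 ± 0.10 in control mice (SD, n = 8 each), and the log2 fold change of −0.18 ± 0.06 (SE) did not pass (limma adjusted p = 0.0828). It was negative on 5 of 5 slides and measured −0.19 and −0.17 on the 2 scan days.

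Scd1 measured 2.07, 2.51 and 2.82 in KO chimeras, against 2.34, 2.68 and 2.93 in control mice. The log2 fold change was −0.17 ± 0.10 (SE, adjusted p = 0.352 by limma), and it was −0.27 on scan day 1 and −0.07 on scan day 2. Scd2, the main desaturase of brain, gave −0.09 ± 0.07, and Elovl5 gave −0.04 ± 0.07. Fasn gave 0.00477 ± 0.07 (SE). The probes of the next genes disagreed. Acly gave −0.08 ± 0.06 (SE) on the brighter probe, which was the one tested, and 0.28 on the other. That other Acly probe was dim, averaging −2.53 in KO chimeras and −2.81 in control mice, against 4.04 and 4.12 on the tested probe. Acaca gave −0.08 ± 0.09 (SE) on the tested probe and −0.16, 0.24 and 0.41 on its other probes. The Acaca probe at −0.16 averaged 3.15 in KO chimeras and 3.31 in control mice, near the tested probe (3.26 and 3.34). The probes at 0.24 (−1.76 and −1.995) and 0.41 (−4.25 and −4.67) were dimmer. The probe at 0.41 was well above background on 5 arrays of KO chimeras and 4 of control mice. With the mean of all kept probes, the dim ones included, Acly was at 0.10 and Acaca at 0.10. Over the 7 genes 6 differences were negative, with a median of −0.08, which was −0.02 with quantile normalization and −0.21 with centring on the array median.

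Efflux and removal follow the liver X receptors, which oxysterols activate and which switch on Abca1, Abcg1 and Apoe. Abca1, the pump that loads cholesterol onto lipid-poor apolipoproteins, measured 0.08, 0.32 and 0.74 in KO chimeras, against 0.36, 0.54 and 0.66 in control mice. KO chimeras spread further than control mice, with 4 below and 1 above all of them. The log2 fold change was −0.17 ± 0.08 (SE, adjusted p = 0.251 by limma), with −0.37 on scan day 1 and 0.02 on scan day 2. Abcg1, which passes cholesterol to lipoprotein particles, measured 2.46, 2.57 and 2.68 in KO chimeras, against 2.50, 2.67 and 2.79 in control mice. The ranges overlapped, and the log2 fold change was −0.08 ± 0.05 (SE, adjusted p = 0.411 by limma). Apoe, the main apolipoprotein of brain, measured on 10 spots per array, gave −0.05 ± 0.06, and Cyp46a1, the cholesterol 24-hydroxylase of neurons, gave 0.09 ± 0.11 (SE each). The median of the 4 genes was −0.07. It lay beside −0.09 for sterol synthesis and −0.08 for fatty acid synthesis, so the medians of synthesis and efflux lay on the same side of 0; differences between the gene groups were not tested.

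Stard4, a carrier of cholesterol between membranes and an SREBP target, measured 1.13, 1.31 and 1.55 in KO chimeras, against 1.37, 1.44 and 1.604 in control mice. In 6 of 8 KO chimeras it lay below every control mouse, and the log2 fold change was −0.15 ± 0.07 (SE, adjusted p = 0.190 by limma). Lpl, lipoprotein lipase, measured −2.82, −2.38 and −1.77 in KO chimeras, against −2.87, −2.08 and −1.54 in control mice. Animals of both groups spread over more than for any other member, with an SD of 0.39 in KO chimeras and 0.40 in control mice. Its log2 fold change was −0.30 ± 0.18 (SE, adjusted p = 0.367 by limma), and a second Lpl probe gave 0.13. That second probe averaged −4.53 in KO chimeras and −4.66 in control mice. It was well above background on 4 arrays of KO chimeras and 5 of control mice. Soat1, which esterifies cholesterol for storage, gave −0.11 ± 0.08 (SE). All 3 differences in this group were negative, with a median of −0.15.

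**Figure D4:**
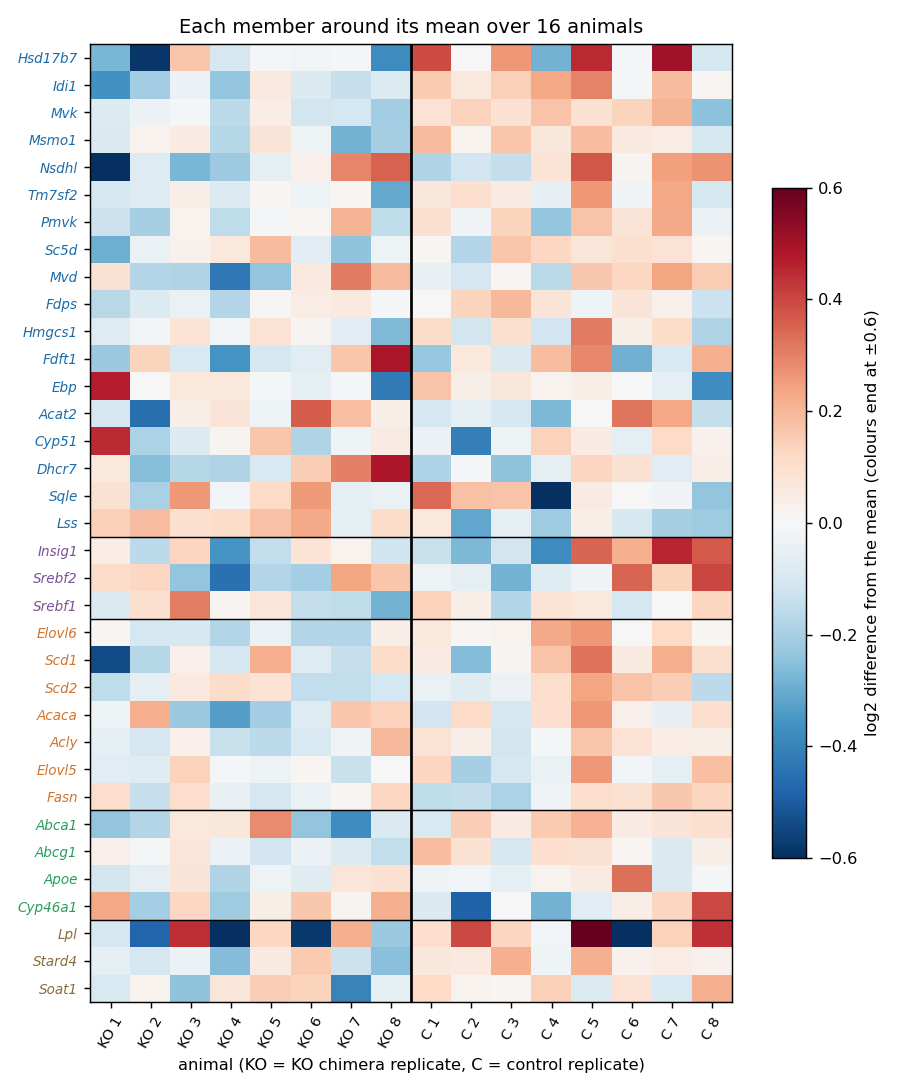
Each of the 35 genes in each of the 16 animals as the log2 difference from the mean of the gene over the animals, KO chimeras left of control mice, rows grouped by role (colours end at 0.6 either side of 0). Idi1 is below its mean in most KO chimeras and Lss is above it in most of them, while most other rows show both signs on both sides.

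Across animals the members did not move as one block. After the mean of each group was removed, the correlation between 2 members over the 16 animals had a median of 0.09 over 595 pairs and ranged from −0.79 to 0.83. All pairs of genes tested had a median of 0.0078. Among the 18 sterol enzymes the median was 0.13 (153 pairs), among the 7 fatty acid genes 0.31 (21 pairs), and among the 4 efflux genes −0.07 (6 pairs). These values describe 16 arrays that share their scaling, and the part of array quality in them was not tested. The mean of the 18 sterol enzymes, each centred on its own mean, lay between −0.12 and 0.03 in KO chimeras (median −0.01) and between −0.07 and 0.16 in control mice (median 0.04). The mean of the 7 fatty acid genes lay between −0.10 and 0.07 in KO chimeras (median −0.06) and between −0.07 and 0.23 in control mice (median 0.06). In both measures the highest animal was control replicate 5.

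Another 43 genes of the same pathways, listed beside the members, were all tested. Of these 3 fell and 0 rose at a limma adjusted p under 0.05, against 2.8% lower and 1.03% higher among all genes. Of the 43 differences 32 were negative, against 50.1% for all genes, with a median of −0.09. The genes that fell belong to fatty acid and oxysterol metabolism. Acsl3, which activates long-chain fatty acids with coenzyme A, averaged 2.10 ± 0.19 in KO chimeras and 2.49 ± 0.15 in control mice (SD, n = 8 each), a log2 fold change of −0.39 ± 0.09 (SE, adjusted p = 0.0270 by limma). Elovl2, which lengthens polyunsaturated fatty acids, averaged −0.53 ± 0.18 in KO chimeras and −0.23 ± 0.06 in control mice, a log2 fold change of −0.30 ± 0.07 (SE, adjusted p = 0.0329 by limma). Cyp7b1, which hydroxylates oxysterols, averaged 0.35 ± 0.14 in KO chimeras and 0.67 ± 0.13 in control mice, a log2 fold change of −0.32 ± 0.07 (SE, adjusted p = 0.0240 by limma). Blocked by slide, Acsl3 passed (limma adjusted p = 0.0465), Elovl2 did not (0.0567) and Cyp7b1 did not (0.0544). In Cyp7b1 the difference was −0.51 on scan day 1 and −0.14 on scan day 2.

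Next in order within these lists, Elovl1 gave −0.32 (limma adjusted p = 0.0617) and Apod, an apolipoprotein of glia, −0.46 (0.0600), and Abcg4, a cholesterol exporter of neurons, −0.19 (0.122). In the list of 8 other genes of sterol synthesis and SREBP processing 0 were called by limma and 4 had an unadjusted p under 0.05, with 7 of the 8 negative. Over all genes tested 3.83% were called, 20.7% had an unadjusted p under 0.05 and 50.1% were negative. The smallest p-values of that list belonged to Acat1 at −0.19 (limma adjusted p = 0.0989) and Insig2 at −0.19 (0.190). None of these 5 genes passed at 0.05 without a block on the tested probe. Other probes of Abcg4 gave −0.24 (limma p adjusted over all kept probes = 0.0459) and −0.00497. A second Insig2 probe gave −0.01, a second Elovl1 probe −0.20 and a second Apod probe −0.50. Blocked by slide, Elovl1 (−0.39, limma adjusted p = 0.0432) and Apod (−0.52, limma adjusted p = 0.0435) did pass, and the other 3 did not.

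Slides gave different medians for the groups of genes. For the sterol enzymes the median ran from −0.10 on slide 5 to 0.01 on slide 4, and it was −0.05 and −0.07 on the 2 scan days. For the fatty acid genes it ran from −0.38 on slide 5 to 0.03 on slide 6, and it was −0.12 and −0.07 on the 2 days. The efflux genes ran from −0.135 on slide 4 to 0.02 on slide 1, with −0.07 and −0.01 on the 2 days. Slides 4 and 5 held 1 animal of each group, and slide 2 held KO chimera replicate 4 alone. On slide 1 control replicate 1 was the only control mouse, and on slide 3 KO chimera replicate 5 was the only KO chimera. Only slide 6 held more than 1 animal of each group.

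Markers of other cells and of a neighbouring region also differed between the groups. Over all genes tested 2.8% were called lower and 1.03% higher, 20.7% had an unadjusted p under 0.05, and 50.1% of differences were negative. Of 13 oligodendrocyte markers, 4 fell (Mal, Mobp, Cldn11 and Mog, with log2 fold changes of −0.66, −0.68, −0.48 and −0.36) and 11 differences were negative, with a median of −0.36. Mbp (0.07) and Ermn (0.09) were positive and were not called. The mean of the 13 markers per animal ran from −0.32 to 0.06 in KO chimeras and from −0.15 to 0.48 in control mice, and control replicate 5 was again the highest. Fatty acid members correlated with these markers with a median of 0.31 (91 pairs, groups centred) and all 35 members with 0.14, but the groups differed in sign. With the mean of the markers, 5 of the 7 fatty acid genes correlated negatively over the 8 KO chimeras, from −0.74 for Acaca to 0.52 for Scd2, whereas all 7 correlated positively over the 8 control mice, from 0.43 for Acaca to 0.86 for Scd1. These correlations describe 8 arrays per group that share their scaling, and the difference between the groups was not tested. The markers were averaged without scaling, and Ermn spread most in KO chimeras (SD 0.70, others 0.09 for Cnp to 0.26 for Mobp). KO chimera replicate 8 was lowest of its group for the markers (−0.32) and highest for the fatty acid genes (0.07). Control replicate 5 was highest of its group for both (0.48 and 0.23). The weight of single animals or markers was not tested. Of 11 thalamus markers 2 fell (Prkcd and Adarb1), with a median of −0.62; their mean per animal ran from −1.23 to 0.33 in KO chimeras and from −1.01 to 1.35 in control mice. The median was −0.13 for 8 astrocyte markers (0 called by limma, 2 at an unadjusted p under 0.05), −0.22 for 9 microglia markers (Trem2 called lower) and −0.20 for 6 neuron markers (Rbfox3 called lower). It was −0.09 for 5 markers of choroid plexus and 0.15 for 5 of endothelium, with 0 called by limma in each list (1 at an unadjusted p under 0.05 in each). The mean of the choroid plexus markers per animal ran from −0.81 to 1.94 in KO chimeras and from −0.89 to 2.06 in control mice. No marker of these lists was at 0, since all passed the filter on dim probes. Blocked by slide, Mog, Adarb1 and Trem2 no longer passed (limma adjusted p = 0.0738, 0.0549 and 0.0670), Ramp3 of the thalamus list passed as lower (0.0362), and the other 5 calls held. The part of these differences in the values of the lipid genes was not tested.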

How the data were processed

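Total RNA from hypothalamus of 16 mice was labelled with Cy3. Per the file headers, the authors deposited scanner intensity per spot, background-subtracted on a linear scale, with probe positions in mm9. The headers give Feature Extraction 10.1.1.1 and the submitters' processing notes give 10.7. The authors also deposited a table of log2 values, with array medians of 5.21 to 5.26 and a slope of 0.978 to 1.03 against the scanner's log2 signal. Its genes were not centred, and how its arrays were aligned is unknown.

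Control and outlier spots were left out, log2 was taken and the 75th percentile of each array was subtracted. Spots of a probe were averaged, and a probe was kept (35140 of 55681) if at least 8 of the 16 arrays had it well above background. The brightest probe of each gene was tested. The members had 50 probes, 48 named by accession and 2 by current symbol, and 47 were kept. No member was saturated on any array. Groups come from the source names, since 1 KO chimera's title has a zero for the letter O. The test was limma's moderated linear model (3.58.1, lmFit then eBayes, R 4.3.3), with Benjamini-Hochberg adjustment over 24360 genes and a threshold of 0.05. The fit was tested on simulated data, drawn independently for each gene with its real mean and spread. It called 10% of the 50 genes given a log2 change of 0.25, 54% at 0.50 and 92% at 1.00. There were 5 false calls among 24077 unchanged genes. Changes of about 0.25 were thus mostly missed in the simulation.

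Members named with full values were those past the threshold, the 8 with the smallest p, and the 2 of each gene group with the smallest p; up to 3 other genes per pathway list were named by smallest p. Members and lists were chosen with earlier results of these data known. Arrays lay on 6 slides, and each of the 2 scan days held 4 animals per group. Alternatives were other normalizations, normexp (offset 50), the deposited table, other filters and probe rules, blocks for slide, day and replicate number, other variance models, each animal left out, and a threshold of 0.1. Some genes of these pathways are not reported here. Promoter sequences are from RefSeq (GRCm38.p6), and 8 members had none in the table used. Python 3.11.15 and matplotlib 3.10.9 drew the figures.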

Additional observations from a re-analysis of the deposited data

Results flagged for a closer look

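In 9 of the 70 groups tested (35 genes, each in 8 KO chimeras and 8 control mice) 1 animal lay far from the other 7 (Dixon's criterion, 95%), which is 12.9%; chance gives about 1 group in 20. All values are log2 signal relative to the 75th percentile of the array. Among KO chimeras, replicate 8 was low for Hmgcs1, at 4.39 with the next at 4.58, and for Tm7sf2, at 1.497 with the next at 1.697. Replicate 7 was low for Lss, at −1.79 with the next KO chimera at −1.64. Without it the Lss difference was 0.27 and passed (limma adjusted p = 0.0349).

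Among control mice, replicate 8 was low for Mvk, at 2.33 with the next at 2.66, and for Ebp, at 2.46 with the next at 2.77. Replicate 2 was low for Cyp51, at −1.35 with the next at −1.005, and for Sc5d, at 1.57 with the next at 1.76. Replicate 4 was low for Sqle, at 2.43 with the next at 3.09. Replicate 6 was high for Apoe, at 8.08 with the next at 7.80, and without it the Apoe difference was −0.00743. In 8 of the 9 cases the distant animal was the lowest of its group.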

How the results depend on the processing

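Idi1 was negative in all 32 alternatives and passed in 15, from −0.40 with centring on the array median to −0.175 with normexp (limma adjusted p 0.00674 to 0.363). Lss was positive in all 32 and passed in 9, from 0.12 to 0.27 (limma adjusted p 0.0248 to 0.412). With each animal left out, Idi1 passed in 7 of 16 fits and Lss in 4. Idi1 lost its call without control replicate 1, 3, 4, 5 or 7 and without KO chimera replicate 2, 4, 6 or 7 (adjusted p up to 0.0716), and Lss kept it only when control replicate 1, 3 or 5, or replicate 7 of the KO chimeras, was the animal left out (adjusted p up to 0.0763). The number of members called higher was 0 under quantile normalization, centring on the array median, normexp, the deposited table, no filter, slide as a fixed block, either scan day, the replicate block, eBayes with trend and robust settings, and without the arrays with the fewest and the most spots above background (a setting chosen after seeing the data). The number called lower was 0 under quantile normalization, normexp, the deposited table, no filter, the slide block, either day and the replicate block. It was 10 with the array median, and 2 with array weights, without those 2 arrays and at a threshold of 0.1. Leaving out 1 animal gave 0 to 1 higher and 0 to 2 lower.

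Over all genes the number called was 539 (quantile), 4168 (array median), 495 (normexp), 535 (deposited table), 598 (no filter, 40.5% of them higher), 488 (slide block), 2039 (threshold 0.1), 0 on scan day 1 (limma; 2837 at an unadjusted p under 0.05) and 7 on day 2 (4 higher, 3434 at an unadjusted p under 0.05). With 1 animal left out it ran from 364 to 1030. It was 542, 364 and 390 without control replicates 1, 5 and 7, and 443, 617, 403 and 617 without KO chimera replicates 2, 4, 6 and 7. Fewer animals entered the fits within a day, and the cause of the other changes was not tested. Same-numbered animals of the groups deviated together with correlations of −0.07 to 0.24, not all above 0.1. Animals with different numbers were not compared, so these values cannot settle whether the numbers pair the animals. With the replicate block 821 genes were called, and 0 members (Idi1 limma adjusted p = 0.0549, Lss 0.0577).

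With the array median, the median was −0.217 for sterol enzymes, −0.21 for fatty acid genes and −0.192 for efflux genes. Within slides it was 0.00866 for sterol enzymes on slide 4, −0.288 and 0.186 for regulators on slides 4 and 6, −0.383 and 0.033 for fatty acid genes on slides 5 and 6, 0.015 for efflux genes on slide 1, and 0.145, −0.309 and −0.342 for handling genes on slides 3, 4 and 5. With 1 animal left out the medians ran from −0.10 to −0.06 (sterol), −0.15 to −0.05 (regulators), −0.11 to −0.06 (fatty acid), −0.08 to −0.05 (efflux) and −0.19 to −0.13 (handling).

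Members whose sign turned had not passed. With the array median these were Acat2 (−0.10), Sqle (−0.021), Cyp51 (−0.075), Ebp (−0.10), Dhcr7 (−0.049), Fasn (−0.12) and Cyp46a1 (−0.035). Quantile normalization turned Hmgcs1 (0.0078), Fdft1 (0.049), Fasn (−0.018) and Elovl5 (0.019). Normexp turned Hmgcs1 (0.024), Fdft1 (0.068), Acly (0.0067), Fasn (−0.0078), Elovl5 (0.031) and Abcg1 (0.013). The deposited table turned Fdft1 (0.049), Fasn (−0.019) and Elovl5 (0.016), and the mean of all kept probes Fdft1 (0.13), Acly (0.096) and Acaca (0.10). The slide block turned Fdft1 (0.013), and array weights turned Fdft1 (0.0063), Cyp51 (−0.0076), Ebp (−0.025) and Fasn (−0.0046). Scan day 1 turned Mvd (0.092) and Srebf2 (0.095), and day 2 Fdft1 (0.016), Cyp51 (−0.018), Ebp (−0.031), Srebf1 (0.097), Elovl5 (0.038) and Abca1 (0.023). Without the arrays with the fewest and the most spots Fdft1 was 0.046, Cyp51 −0.0026 and Ebp −0.092. With 1 animal left out, the signs of Acat2 (−0.021 to 0.095), Fdft1 (−0.086 to 0.036), Sqle (−0.016 to 0.16), Cyp51 (−0.0099 to 0.082), Ebp (−0.041 to 0.087) and Fasn (−0.022 to 0.028) varied. The cause of these turns was not tested.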
